A study of Sus scrofa with 54 samples.

Results

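The genes described here are those of class I antigen processing, namely TAP1, TAPBP, PSMB8, PSMB10, PSME1, PSME2, CALR, CANX and PDIA3, 9 genes among 6765 with a symbol of their own on the array. They were found by symbol in the platform annotation, which gave 18 probesets of the 23999 tested. TAP1 had 3 probesets, CANX 6 and PDIA3 3, and the other genes had 1 each. Where a gene had several, the probeset with the highest mean over all arrays stood for it.

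MHC class I molecules show fragments of a cell's own proteins to CD8 T cells. The fragments are cut by the proteasome, carried into the endoplasmic reticulum (ER) by the TAP transporter and fitted into the class I groove by a loading complex. Interferons are known from human and mouse cells to raise the transporter, the loading factor tapasin and a set of exchangeable proteasome subunits together, whereas the lectin chaperones of the ER serve the folding of glycoproteins in nearly every cell. The gut epithelium and the lymphocytes that lie within it both carry this pathway.

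The values come from the ileum of 54 piglets of Large White × Landrace sows, 1 array per piglet and 6 piglets in each of 9 groups. Piglets of the IR group were born to indoor sows and moved to individual isolators at 24 h of age. This group was given the antibiotics Baytril (enrofloxacin) and amoxicillin daily, and was fed milk replacer until day 28. The IN and OUT groups were reared by their sows in an indoor and in an outdoor environment. All piglets were weaned at day 28 and then ate creep feed, and piglets of each treatment were sampled at days 5, 28 and 56. All litters had the same boar as sire. The IR and IN piglets came from the same indoor sows, and the OUT piglets from other sows. Each sow gave several piglets to a treatment, so littermates occur across IR and IN and across the ages of a treatment. Whether they also occur within a group is not given, and the paper calls the 6 samples of a group biologically independent. The piglets are thus separate animals but not unrelated ones. The litter is not among the labels, and the tests take no account of it. The experiment was done in consecutive runs, each with piglets of every treatment, and the paper fitted the run as a blocking factor. The labels do not give the run either, so any difference between runs stays in the spread within groups here. Isolator, antibiotics and milk replacer came together in the IR group and cannot be told apart, and nor can the age of the piglets and any batch of arrays run by age. In comparisons with OUT, the dams and the site cannot be told apart from the outdoor environment.

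The deposited values are gcRMA signals on the log2 scale, on which 1 unit is a 2-fold difference. Array medians lay between 3.99 and 4.22, and the number of arrays, not a depth of counting, limits the precision. Epithelial markers (6 of 7 on the array) averaged between 11.46 and 12.02 in the 9 groups and smooth muscle markers (4 of 5) between 10.96 and 11.60, so the tissue held muscle as well as mucosa. The ileal enterocyte markers FABP6 and APOA4 averaged 7.46 to 8.55 at day 5 and 12.95 to 13.72 at day 56. T cell markers (6 of 7) were low at day 5, between 3.30 and 3.47 in the group means, and averaged 6.03 to 6.81 at day 28 and 6.73 to 7.58 at day 56. Of the B cell list only CD79B was on the array.

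A pair of arrays stood apart. The array labelled IN replicate 3 at day 28 had a mean correlation of 0.973 with the IN arrays of day 5 and of 0.935 with the other arrays of its own group. Its T cell markers averaged 3.17, against 5.77 to 7.77 in the other 5 IN piglets of that day, and its enterocyte markers averaged 7.77, against 9.89 to 13.34. Both lists were near the day 5 levels of IN piglets (3.34 to 3.68 and 7.81 to 8.34), so that its profile went against its day label. For OUT replicate 3 at day 5 the mean correlation with its group was 0.881, against 0.963 for the next lowest. Its macrophage markers CD14 and CD163 averaged 8.53, against 3.59 to 4.18 in the other 5, and its enterocyte markers 4.06, against 7.89 to 8.81. CD14 and CD163 were the only 2 on the array of 6 listed markers of macrophages and dendritic cells. Several results below are also given without both arrays. At day 28 OUT replicates 1 and 2 had mean correlations of 0.969 and 0.966 with the IN arrays of day 5, against 0.965 and 0.958 with the other arrays of their own group. Their mean correlations with the IR arrays of day 56, 0.968 and 0.962, were also higher than with their own group. Those with the OUT arrays of day 5, 0.956 and 0.951, were lower.

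TAP1, a subunit of the peptide transporter, and PSMB8, a catalytic subunit of the immunoproteasome, showed the widest ranges with age among the 9 genes. TAP1 averaged 7.92 ± 1.44, 11.12 ± 0.54 and 10.52 ± 0.91 in IR piglets at days 5, 28 and 56 (SD, n = 6 in each group). In IN piglets the means at these days were 7.01 ± 1.05, 9.82 ± 1.73 and 11.21 ± 0.38, and in OUT piglets 6.75 ± 0.91, 10.00 ± 1.32 and 10.92 ± 0.84. The 3 lowest of the 9 group means were those of day 5. The step from the highest day 5 mean to the next mean, 1.90, was the only gap between neighbours in that order that exceeded the larger SD of the pair, and the 6 means of days 28 and 56 lay within the spread of their neighbours.

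In single piglets TAP1 spanned 10.31 to 11.92 in IR at day 28 (median 11.13) and 6.39 to 9.90 in IR at day 5 (median 7.45), with no overlap. OUT piglets spanned 8.11 to 11.37 at day 28 (median 10.28) and 5.62 to 7.91 at day 5 (median 6.71), again without overlap. IN piglets spanned 6.39 to 11.31 at day 28 (median 10.32) and 5.70 to 8.60 at day 5 (median 6.82). The IN groups overlapped only through replicate 3 of day 28, since the other 5 piglets lay at 10.03 or above. TAP1 was thus 9.19-fold higher at day 28 than at day 5 in IR (log2 fold change 3.20, standard error 0.62, limma adjusted p = 0.000211), higher in IN (2.81, standard error 0.62, adjusted p = 0.000842, and 3.49 without the pair of arrays that stood apart) and 9.47-fold higher in OUT (3.24, standard error 0.62, adjusted p = 0.000178). In a bulk tissue such a change cannot be told apart from a change in the number of cells that carry the mRNA. T cell markers moved the same way, with 5 of 6 markers higher at day 28 by the study's criterion in each of the 3 treatments. Among all probesets 2.9% in IR, 3.75% in IN and 3.11% in OUT were higher by it. The part of the T cells in the change was not tested.

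**Figure D1:**
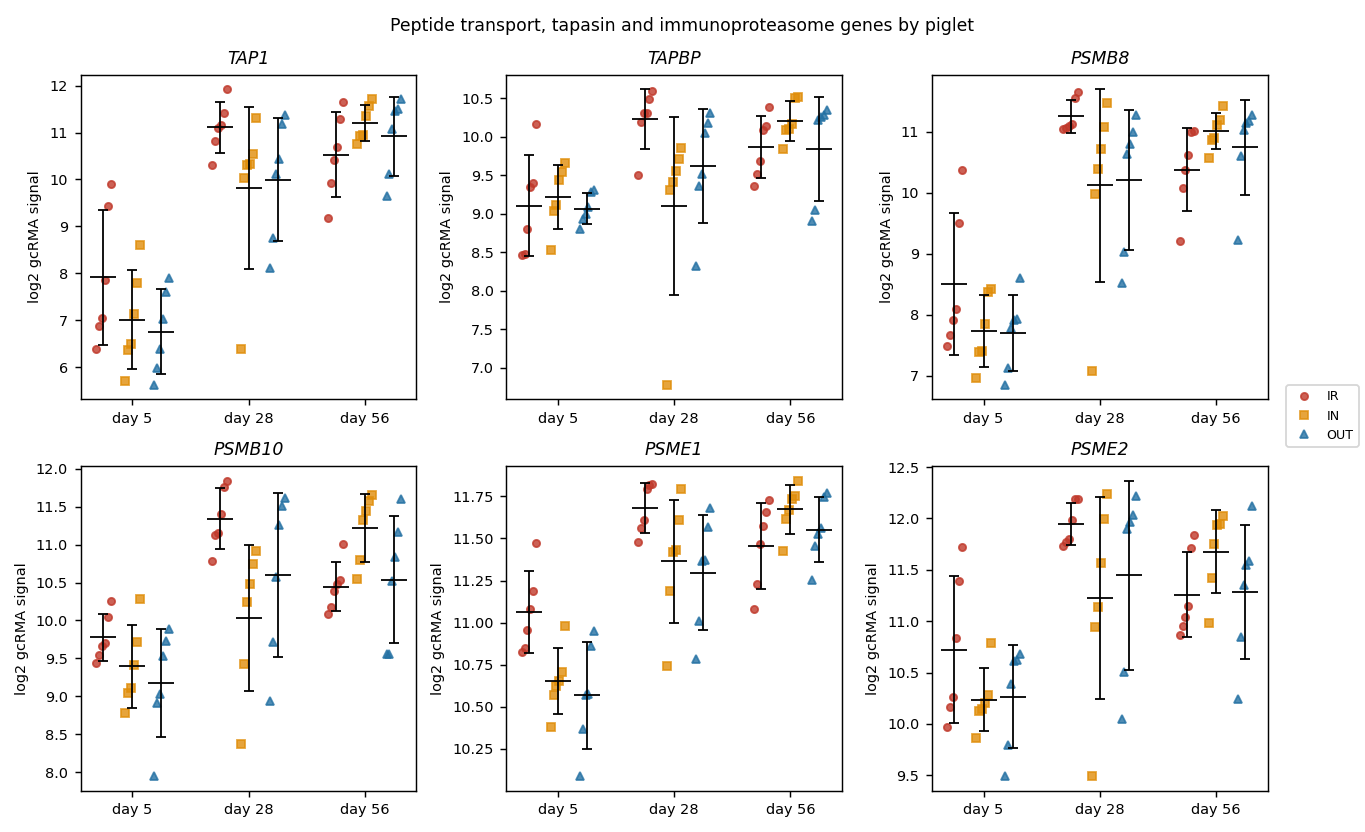
Log2 gcRMA signal of TAP1, TAPBP, PSMB8, PSMB10, PSME1 and PSME2 (brightest probeset) in each of the 54 piglets, by day and, within a day, by treatment (IR circles, IN squares, OUT triangles). Black bars are means ± SD of 6 piglets. For TAP1 the 5 highest IN piglets of day 28 start at 10.03 while replicate 3 lies at 6.39.

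PSMB8, which takes the place of PSMB5 in proteasomes of interferon-treated cells, followed the same course. IR piglets spanned 11.04 to 11.64 at day 28 (median 11.11) and 7.49 to 10.38 at day 5 (median 8.00). OUT piglets spanned 8.51 to 11.27 at day 28 (median 10.71) and 6.85 to 8.60 at day 5 (median 7.85). IN piglets spanned 7.08 to 11.47 at day 28 (median 10.55) and 6.97 to 8.42 at day 5 (median 7.62). The ages did not overlap in IR, and they overlapped in OUT through the lowest day 28 piglet and in IN through replicate 3 of day 28. The fold change between day 28 and day 5 was 6.73 in IR, 5.22 in IN and 5.67 in OUT, with limma adjusted p-values of 0.000100, 0.000527 and 0.000351. Without the pair of arrays that stood apart the fold change in IN was 7.96, or 2.99 on the log2 scale against 2.39 with them.

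The IR piglets of day 5 were themselves uneven. Replicates 1 and 2 had TAP1 signals of 9.43 and 9.90, against 6.39 to 7.86 in the other 4, and PSMB8 signals of 9.50 and 10.38, against 7.49 to 8.09. The same 2 piglets had the highest PSME2 and PSMB10 signals of their group, and interferon signalling genes averaged 8.07 and 8.02 in them, against 7.08 to 7.67 in the other 4. Markers of other cells differed in them as well. Their T cell markers averaged 3.49 and 3.67, against 2.90 to 3.34 in the other 4, all below the array medians. Their macrophage markers CD14 and CD163 averaged 4.11 and 4.32, against 3.03 to 3.60. The enterocyte markers of replicate 2 averaged 10.86, against 8.00 in replicate 1 and 7.99 to 8.17 in the other 4. Broader lists were higher in replicates 1 and 2 too. The constitutive proteasome averaged 10.66 and 10.69, against 9.74 to 10.25 in the other 4. ER chaperones other than the members averaged 10.72 and 10.96, against 9.33 to 10.41, and epithelial markers 12.08 and 11.95, against 11.69 to 11.84. CD79B and the endothelial and smooth muscle markers did not set both piglets apart. The part of these differences in the higher signals was not tested.

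The other genes had smaller fold changes with age. PSMB10, which takes the place of PSMB7, spanned 10.78 to 11.85 in IR at day 28 and 9.44 to 10.26 in IR at day 5, with no overlap and a log2 difference of 1.57 (standard error 0.38, adjusted p = 0.00356). In OUT it was higher by 1.43 (standard error 0.38, adjusted p = 0.00727). In IN it differed by 0.64 between means of 10.03 and 9.39, with an adjusted p of 0.240, and by 0.97 without the pair of arrays that stood apart (adjusted p = 0.0370). The difference of this step between IR and IN was 0.93 (0.60 without these arrays), and no member passed the test of such a difference between days 28 and 5 in limma.

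PSME1 and PSME2 encode the activator ring that caps the proteasome and widens its gate. PSME1 was higher at day 28 than at day 5 by 0.62 in IR, 0.71 in IN and 0.73 in OUT on the log2 scale (standard error 0.15 in each, adjusted p = 0.00287, 0.000479 and 0.000441), which is below 2-fold. PSME2 was higher by 1.22, 0.99 and 1.18 in the same order (standard error 0.35, adjusted p = 0.0135, 0.0366 and 0.0155). TAPBP, which encodes tapasin, the bridge between TAP and empty class I molecules, was higher in IR alone by the criterion, by 1.12 (standard error 0.35, adjusted p = 0.0219). Its log2 difference was 0.56 in OUT (adjusted p = 0.284) and -0.12 in IN (adjusted p = 0.850), where replicate 3 of day 28 stood at 6.78 and the other 5 piglets between 9.31 and 9.86. Without the pair of arrays that stood apart the sign in IN turned, to 0.35 (adjusted p = 0.388).

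By the study's criterion, an unadjusted p under 0.01 and at least a 2-fold change, 7 of the 18 member probesets (6 of 9 genes) were higher at day 28 than at day 5 in IR, 3 in IN and 5 in OUT, and none was lower. Each count holds the dimmest PDIA3 probeset, and that of IR also the second TAP1 probeset, both dim at day 5. PDIA3 is among the 6 genes only through this probeset, since its brightest was not called. Among all probesets 2.9%, 3.75% and 3.11% were higher by the same criterion in IR, IN and OUT. At an adjusted p under 0.05 the counts were 8, 5 and 6 of 18, beside 14.1%, 21.1% and 17.1% of all probesets. The median log2 fold change over the 9 genes was 1.12 in IR, 0.64 in IN and 0.73 in OUT, while that over all probesets lay between -0.02 and -0.01. Without IN replicate 3 of day 28 and OUT replicate 3 of day 5, the IN count was 4, PSME2 being added, and the IR and OUT counts were 7 and 5.

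**Figure D2:**
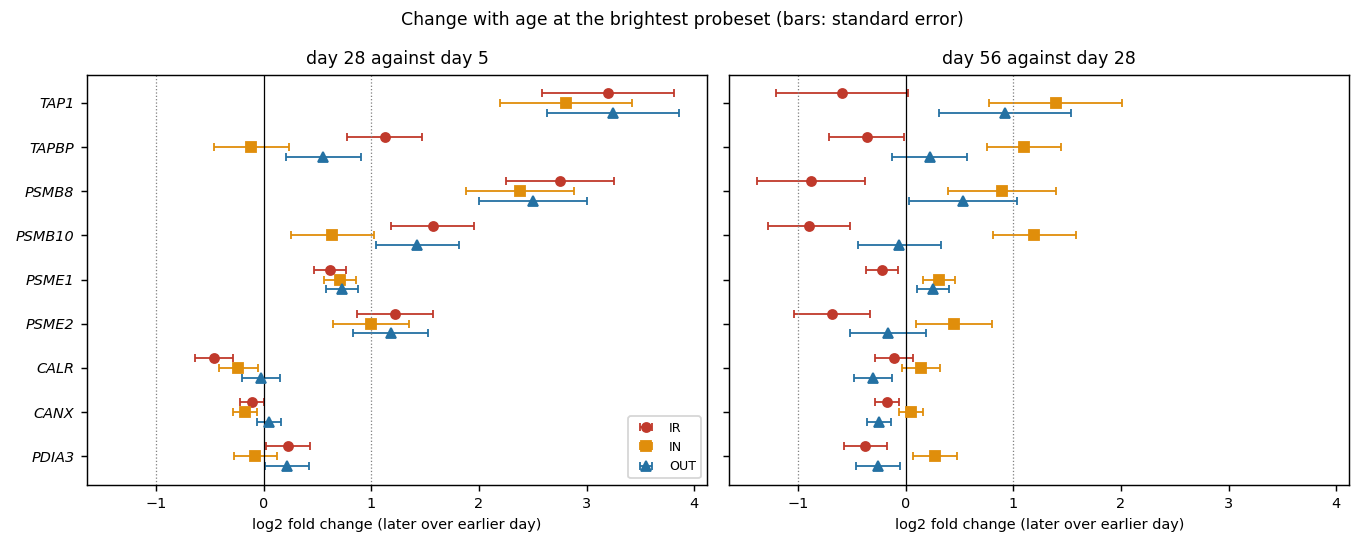
Log2 fold change of each gene at its brightest probeset between day 28 and day 5 (left) and between day 56 and day 28 (right) in IR, IN and OUT piglets, with standard errors from limma and dotted lines at 2-fold. In the left panel TAP1 and PSMB8 lie between 2.39 (PSMB8, IN) and 3.24 (TAP1, OUT) in all 3 treatments, and in the right panel PSMB10 is at 1.19 in IN and -0.90 in IR.

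Between days 56 and 28 the fold changes of the members differed in sign among the treatments. In IN, 3 of 18 probesets were higher at day 56, beside 1.56% of all probesets. These were TAPBP (log2 fold change 1.10, standard error 0.35, adjusted p = 0.0496), PSMB10 (1.19, standard error 0.38, adjusted p = 0.0562) and the second TAP1 probeset (adjusted p = 0.0358). This TAP1 probeset was near background. It lay at 4.02 or above in IN at day 56 and at 2.24 to 3.82 in IN at day 28, where it lay at or below the array median in all 6 piglets, so no fold is given. The brightest TAP1 probeset differed by 1.39 (standard error 0.62, adjusted p = 0.189), and by 0.71 without the pair of arrays that stood apart. In IR, 0 of 18 passed in either direction, beside 1.29% of all probesets called higher. All 9 genes had fold changes below 0 there, and the share of all probesets called lower is not given here. PSMB10 differed by -0.90 in IR (standard error 0.38, adjusted p = 0.184). In OUT, 0 of 18 passed in either direction, beside 1.57% called higher, and the genes lay between -0.30 and 0.92. At an unadjusted p under 0.05 the limma counts were 6 of 18 in IN, 2 in IR and 3 in OUT, beside 19.5%, 18.5% and 22% of all probesets. Without IN replicate 3 of day 28 and OUT replicate 3 of day 5 the IN count was 1, the second TAP1 probeset, and the differences of TAPBP and PSMB10 were 0.63 and 0.86.

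Between treatments at the same age no member passed the criterion. In limma fits of the 3 groups of a day, 0 of 18 probesets were called at day 5 for IR against OUT, IN against OUT and IR against IN, where 0.338%, 0.05% and 0.367% of all probesets were called. The count was 0 of 18 at day 28 too, beside 0.154%, 0.192% and 0.496%, and 0 of 18 at day 56, beside 0.283%, 0.275% and 0.288%. At an unadjusted p under 0.05 the member counts were 2, 0 and 1 at day 5 (6.26%, 3.97% and 7.6% of all probesets), 1, 0 and 2 at day 28 (2.58%, 5.0% and 6.75%) and 0, 1 and 2 at day 56 (7.18%, 7.83% and 6.16%). Over the 9 comparisons 9 of 162 limma tests of probesets were under 0.05, dim probesets included. At the brightest probesets 8 of 81 limma tests and 11 of 81 exact permutation tests were under 0.05. The genes vary together and the comparisons share groups, so these tests are not independent. The lowest adjusted p at the brightest probesets was 0.583. The lowest exact permutation p of a gene was 0.00433.

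At day 5 the member nearest to a difference was PSME1. It spanned 10.82 to 11.47 in IR piglets (median 11.02) and 10.09 to 10.95 in OUT piglets (median 10.57), so that the lower IR piglets lay among the higher OUT piglets. IN piglets spanned 10.38 to 10.98 (median 10.64). The log2 fold change was 0.49 in IR against OUT (standard error 0.15, unadjusted limma p = 0.00406, exact permutation p = 0.0173, and 0.40 with an unadjusted limma p = 0.0108 when OUT replicate 3 was left out) and 0.41 in IR against IN (standard error 0.15, unadjusted p = 0.0137, exact permutation p = 0.0108). The smallest p that 6 piglets against 6 allow in this two-sided test is 0.00216. TAP1 and PSMB8 had larger differences between IR and OUT, 1.16 (standard error 0.62, exact permutation p = 0.134) and 0.80 (standard error 0.45, exact permutation p = 0.186), with the 2 high IR piglets above all others of that day.

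At day 28 the IR piglets were high and close together, and the sow-reared piglets were spread. PSMB8 had an SD of 0.27 in IR, against 1.58 in IN and 1.14 in OUT. In the 5 IN piglets other than replicate 3 the SD was 0.58. The means of all 9 genes were above those of IN, with a median log2 fold change of 0.72 (0.37 without IN replicate 3), and 7 of 9 were above those of OUT, with a median of 0.50. The all-probeset medians were -0.01 and 0.00. PSMB10 spanned 10.78 to 11.85 in IR piglets (median 11.28), against 8.37 to 10.91 in IN piglets (median 10.36). It was 2.48-fold higher in IR (log2 fold change 1.31, standard error 0.47, unadjusted p = 0.0127, adjusted p = 0.603, exact permutation p = 0.00433). TAPBP spanned 9.50 to 10.60 in IR piglets (median 10.31), against 6.78 to 9.86 in IN piglets (median 9.49), a log2 difference of 1.13 (standard error 0.45, unadjusted p = 0.0223, exact permutation p = 0.00866). One IR piglet lay within the IN range for each of these genes. Without IN replicate 3 and OUT replicate 3 of day 5 the differences were 0.98 for PSMB10 and 0.66 for TAPBP (unadjusted p = 0.0362 and 0.0395).

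**Figure D3:**
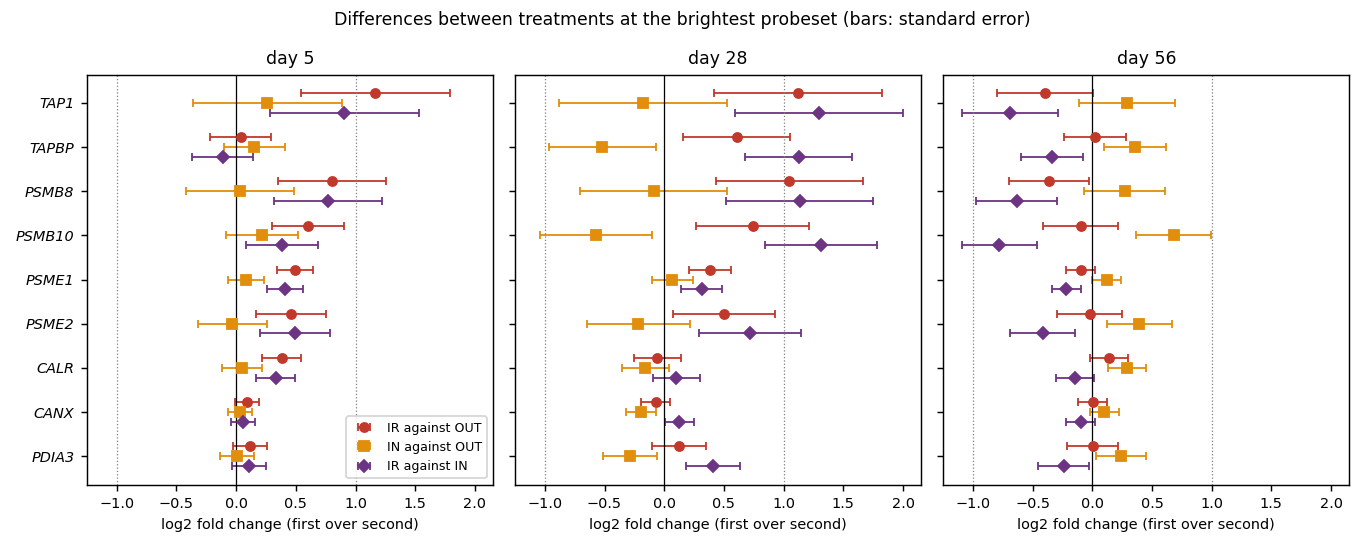
Log2 fold change of each gene at its brightest probeset for IR against OUT, IN against OUT and IR against IN at days 5, 28 and 56, with standard errors from limma and dotted lines at 2-fold. IR against IN is above 0 for all 9 genes at day 28 and below 0 for all 9 at day 56.

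In OUT piglets at day 28 the low values came from replicates 1 and 2. TAP1 stood at 8.75 and 8.11 in them, against 10.13 to 11.37 in the other 4, and PSMB8 at 9.02 and 8.51, against 10.63 to 11.27. Their T cell markers averaged 4.10 and 4.61, against 5.83 to 7.61. Their ileal enterocyte markers, 12.49 and 12.17, lay within the range of the other 4 OUT piglets (11.03 to 13.67). These are also the piglets whose arrays were slightly closer to the IN arrays of day 5 and the IR arrays of day 56 than to their own group. The part of this in their low values was not tested.

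At day 56 the IR means lay below those of IN. PSMB10 spanned 10.08 to 11.01 in IR piglets (median 10.43), against 10.55 to 11.66 in IN piglets (median 11.38), a log2 fold change of -0.78 (standard error 0.32, unadjusted p = 0.0240, exact permutation p = 0.013). All 9 genes had lower means in IR than in IN, with a median of -0.34. PSMB8 differed by -0.63 (standard error 0.34, exact permutation p = 0.0498). IN against OUT at this age was 0.68 for PSMB10 (standard error 0.32, unadjusted p = 0.0443, exact permutation p = 0.115).

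The difference of the IR against IN contrast between days 56 and 28 was tested in the fit of all 9 groups. It was below 0 for all 9 genes. By the same criterion 3 of 18 probesets were called, beside 1.17% of all probesets, and none of the 23999 had an adjusted p under 0.05. PSMB10 had a difference of -2.09 (standard error 0.54, unadjusted p = 0.000362, adjusted p = 0.284) and TAPBP one of -1.46 (standard error 0.49, unadjusted p = 0.00438). The third was the second TAP1 probeset (unadjusted p = 0.00313), which was near background in IN at day 28. PSMB8, at -1.77, and the brightest TAP1 probeset, at -1.99, had unadjusted p-values of 0.0161 and 0.0271, and lay at -1.16 and -1.30 without the pair of arrays that stood apart (unadjusted p = 0.0649 and 0.0962). The contrasts of the 2 days share no piglets. Without IN replicate 3 of day 28 and OUT replicate 3 of day 5 the count was 2, PSMB10 had a difference of -1.76 (unadjusted p = 0.000892), and TAPBP no longer passed (unadjusted p = 0.0166).

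None of the 3 ER chaperones was called in any comparison at its brightest probeset. Calnexin (CANX) and calreticulin (CALR) hold newly made glycoproteins by their sugars, and PDIA3 is the thiol oxidoreductase that works with them and sits in the class I loading complex. CANX had group means between 11.45 and 11.73, and PDIA3 between 11.74 and 12.15, and in both genes every step in the order of the 9 means was smaller than the larger SD of the neighbours. Their largest log2 fold change between ages, with CALR, was -0.47 in IR (CALR, day 28 against day 5, standard error 0.18, adjusted p = 0.0693).

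CALR had a single probeset, and its signal was at or below the median of the array on 48 of 54 arrays, so it carried little information on the mRNA. It spanned 3.74 to 4.51 in IR piglets at day 5 (median 4.21), against 3.54 to 3.99 in OUT piglets (median 3.79), a log2 fold change of 0.38 (standard error 0.16, unadjusted p = 0.0325, exact permutation p = 0.0173).

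**Figure D4:**
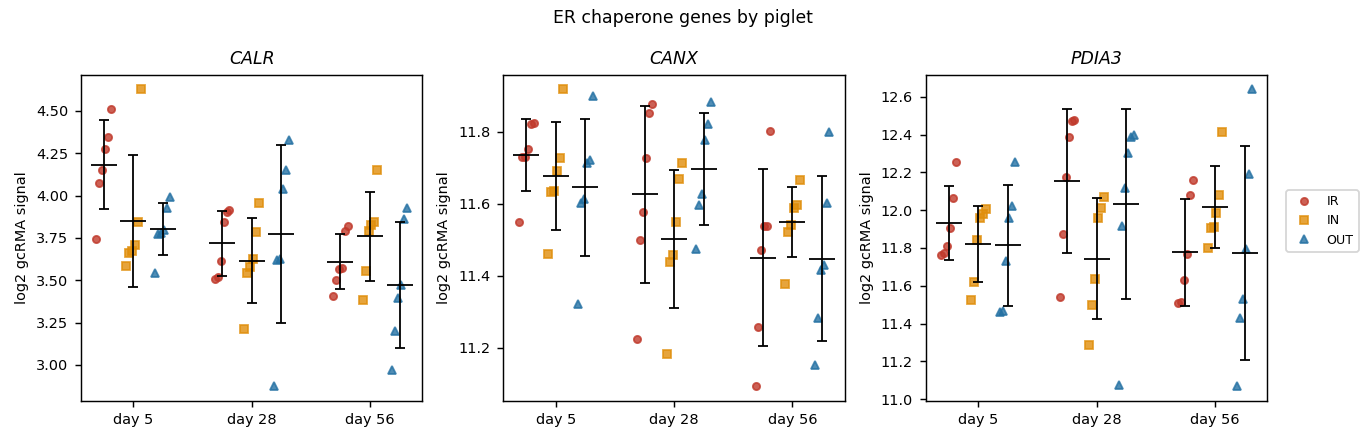
Log2 gcRMA signal of CALR, CANX and PDIA3 (brightest probeset) in each of the 54 piglets, by day and treatment, with means ± SD of 6 piglets in black. Each panel has its own scale, and group means span 3.47 to 4.18 for CALR, 11.45 to 11.73 for CANX and 11.74 to 12.15 for PDIA3.

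Probesets of the same gene disagreed in places. The dimmest PDIA3 probeset was called higher at day 28 than at day 5 in all 3 treatments, by 1.99 in IR, 1.99 in IN and 1.76 in OUT (standard error 0.52 in each), although its mean signal over all arrays was 5.22 and both other PDIA3 probesets had unadjusted p-values above 0.05 there. Its correlation with the brightest PDIA3 probeset over 54 arrays was 0.40. For TAP1 the second probeset, at or below the array median on 37 of 54 arrays, correlated with the brightest at 0.80, and the third at -0.41 with a signal at or below the array median on all 54 arrays. Of the 6 CANX probesets 2 were also at or below the array median on all 54 arrays.

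Within groups the 6 genes of transport and the proteasome varied together from piglet to piglet. Taken as deviations from the 9 group means, PSMB8 correlated with TAP1 at r = 0.91, with PSME2 at 0.90, with TAPBP at 0.80, with PSMB10 at 0.78 and with PSME1 at 0.74 over 54 piglets. Without the 2 piglets farthest from the median of PSMB8 these values were 0.87, 0.87, 0.67, 0.70 and 0.66. The correlations of PSMB8 with the other members were also taken at each day alone. Of these, 3 at day 5, 5 at day 28 and 2 at day 56 fell outside an approximate confidence interval of the value over all days. The 15 pairs among the 6 genes had r between 0.67 and 0.91 (median 0.78), and the 18 pairs between these genes and the chaperones between -0.12 and 0.62 (median 0.17). The points share day, treatment, run and, for littermates, the dam, and each array contributes to every pair. These values are descriptions and carry no p.

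Among 6756 other named genes, those most like PSMB8 in this measure were IFI35 (r = 0.90), an interferon-induced protein, CXCL9 (0.88), a chemokine that interferon gamma induces, CD86 (0.88), a costimulatory molecule of antigen-presenting cells, CD2 (0.87), an adhesion molecule of T cells, and ISG20 (0.86), an interferon-induced exonuclease. Those most like CALR were MGAT1 (0.55), ARPC4 (0.54), MDH2 (0.52), SIAH2 (0.49) and SLC39A7 (0.46), which are lower values on a dim probeset.

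**Figure D5:**
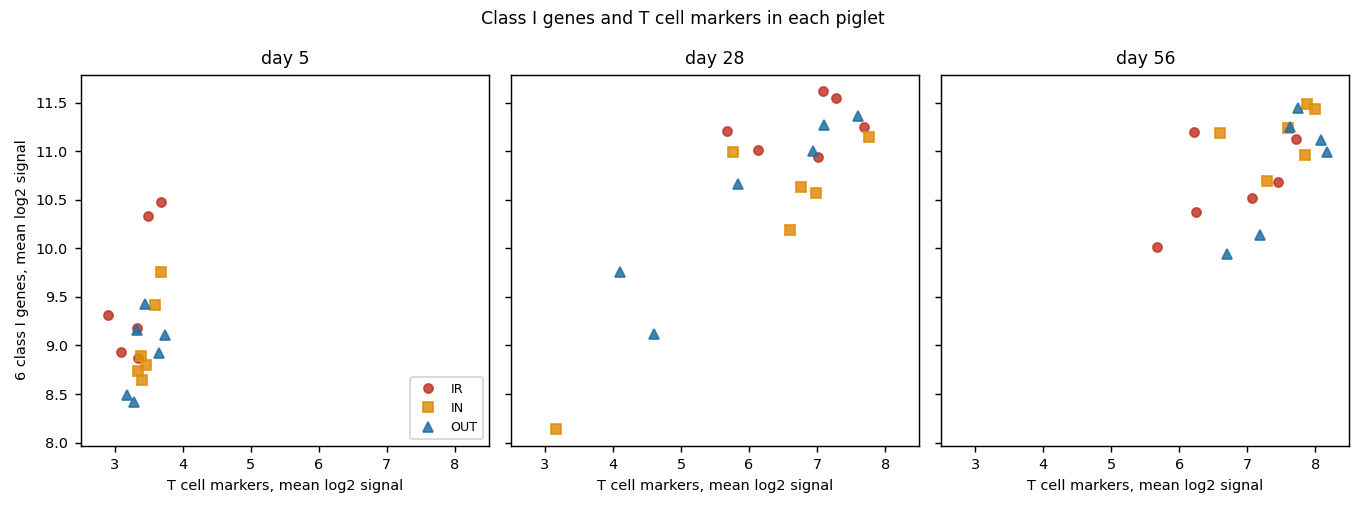
Mean log2 signal of TAP1, TAPBP, PSMB8, PSMB10, PSME1 and PSME2 against the mean of 6 T cell markers in each piglet at days 5, 28 and 56 (IR circles, IN squares, OUT triangles). At day 5 the class I mean spans 8.42 to 10.47 and the T cell markers span 2.90 to 3.74, below the array median in every piglet, and at day 28 the lowest point on both axes is IN replicate 3, at 8.14 and 3.17.

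The mean of the 6 genes was set against marker and pathway lists in the same way. Its deviations correlated with those of the T cell markers at r = 0.74 (0.60 without the 2 farthest piglets), with interferon signalling genes at 0.79 (0.75), with the constitutive proteasome at 0.80 (0.77), with ER chaperones other than the 3 members at 0.75 (0.66), with epithelial markers at 0.22 (0.10) and with smooth muscle markers at 0.24 (0.13). For the ileal enterocyte markers r was 0.43 (0.27) and for CD14 and CD163 it was 0.37 (0.24). For endothelial markers it was -0.29 (-0.26), for CD79B 0.20 (0.09) and for the other class I genes named below 0.87 (0.80). At day 5 the T cell markers averaged below the array median in every piglet, so their spread at that age carries little information.

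Other class I genes on the array were the constant light chain B2M and the heavy chains SLA-2, SLA-3, SLA-6, SLA-7 and SLA-8, 6 of 14 genes listed. The SLA genes are a family of close copies whose probesets can bind each other's transcripts, so single members are uncertain. Between day 28 and day 5, 3 of 6 were higher by the criterion in IR, 2 in IN and 2 in OUT, and none was lower. Among all probesets 2.9%, 3.75% and 3.11% were called higher. SLA-8 was higher by 1.83 in IR, 1.65 in IN and 1.23 in OUT (limma adjusted p = 2.75e-05, 0.000110 and 0.00358) and SLA-3 by 1.53, 0.92 and 1.07 (adjusted p = 0.000352, 0.0260 and 0.0116). B2M differed by 0.24, 0.05 and 0.22, with adjusted p-values above 0.05. Between treatments 0 of 6 passed at any age, where at most 0.496% of all probesets were called in a comparison. At day 28 SLA-8 differed by 0.99 between IR and OUT (unadjusted p = 0.00925), just under 2-fold. This list and those that follow are given with all arrays, among them IN replicate 3 of day 28. That array averaged 8.41 for this list, against 10.05 to 10.54 in the other IN piglets of that day.

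Of the constitutive proteasome 17 of 18 genes were on the array. Between day 28 and day 5, 0 of 17 passed the criterion in IR, 1 in IN and 0 in OUT, beside 2.9%, 3.75% and 3.11% of all probesets called higher. At a limma adjusted p under 0.05 there were 2, 9 and 2 genes, all of them higher. The shares of all probesets at that limit, in either direction, were 14.1%, 21.1% and 17.1%. PSMB7, the subunit that PSMB10 replaces, was higher by 0.75 in IN and by 0.54 in OUT (adjusted p = 0.00170 and 0.0279) and differed by 0.48 in IR (adjusted p = 0.0572). The median log2 fold change of this list was 0.47 in IR, 0.63 in IN and 0.49 in OUT. Between treatments 0 of 17 passed at any age, where at most 0.496% of all probesets were called in a comparison. The IR means at day 5 were above those of IN and of OUT for all 17 genes, with medians of 0.41 and 0.29. In IR at day 5 replicates 1 and 2 averaged 10.66 and 10.69 for this list, against 9.74 to 10.25 in the rest of that group.

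ER chaperones and their regulators beyond the 3 members (11 of 13 on the array) had 1 gene higher in IR, 0 in IN and 2 in OUT at day 28 against day 5. The shares of all probesets called higher were 2.9%, 3.75% and 3.11%. CRELD2, a gene of the ER stress response, was higher by 1.46 in IR (unadjusted p = 0.00795, adjusted p = 0.0544) and 1.83 in OUT (adjusted p = 0.0125). Between treatments 1 was called, HYOU1, an ER chaperone of the heat shock family, which was lower in IN (log2 fold change -1.47 against OUT at day 28, unadjusted p = 0.00938). In that comparison 0.192% of all probesets were called. At that age the means of all 11 genes in IN were below those of OUT, with a median log2 difference of -0.60, and those in IR were above those of IN, with a median of 0.61. These values include IN replicate 3, which averaged 8.95 for this list, against 9.62 to 11.31 in the other IN piglets of that day.

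Interferon signalling genes (12 of 14 on the array) had 5 genes higher at day 28 than at day 5 in IR, 3 in IN and 3 in OUT by the criterion. The shares of all probesets called higher were 2.9%, 3.75% and 3.11%. STAT2, a transcription factor of the interferon response, was higher by 1.57 in IR (adjusted p = 0.000536) and 1.33 in OUT (adjusted p = 0.00295), and differed by 0.99 in IN (adjusted p = 0.0242, just under 2-fold). JAK2, a kinase of the interferon gamma receptor, was higher by 2.03 in IR (adjusted p = 0.000183) and 1.24 in IN (adjusted p = 0.0172). IRF1, a transcription factor that interferon gamma induces, was higher in IR than in IN at day 28 by 1.34 (unadjusted p = 0.00460, adjusted p = 0.497) and higher at day 56 than at day 28 in IN by 1.16 (adjusted p = 0.0366). IRF7 was called at day 5 for IR against OUT, at 2.32 on the log2 scale (unadjusted p = 0.00395). No other gene of the list was called between treatments, where at most 0.496% of all probesets were called in a comparison. At day 28 this list averaged 6.77 in IN replicate 3, against 8.13 to 8.70 in the other IN piglets of that day.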

How the data were processed

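Ileal RNA of 54 piglets was put by the authors on GeneChip Porcine Genome arrays, scanned with GCOS 1.2 per the labels, and normalized by gcRMA. The deposited values are log2 signals and were used as deposited. Groups and replicate numbers were taken from the labels, and 2 arrays at day 56 carry no number. Of 24123 probesets 124 controls were left out. The annotation gives 1 symbol to 10069 of the other 23999, several to 198 and none to 13732.

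Treatments were compared with limma 3.58.1 in R 4.3.3, in 1 fit per day with its 3 groups. Ages and differences between days were compared in 1 fit of all 9 groups. No block was used in these fits, since the run, which the paper fitted as a blocking factor, is not among the labels used. Calls followed the criterion of the study, p under 0.01 before adjustment together with a fold of 2 or more. Benjamini-Hochberg adjustment covered all 23999 probesets. Exact permutation tests of single genes, two-sided, ran over the 924 splits of the piglets of 2 groups. The fit was tested on simulated shifts. The members, gene lists and tests were chosen with earlier results of these data known. Named genes are the 9 members, up to 4 genes of each other list with the smallest p in a comparison, and the 5 genes most like PSMB8 and CALR. Alternatives were other blocks, other groups in the fit, a filter on dim probesets (a log2 value of 4 reached on fewer than 6 arrays), repeated quantile normalization, median centring, an intensity trend, adjusted p-values alone and each array left out. Leaving out the arrays that stood apart, the tests of differences between days and the correlations without 2 piglets were added after seeing the data. Figures were drawn with matplotlib 3.10.9.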

Additional observations from a re-analysis of the deposited data

Results flagged for a closer look

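Of 81 gene and group combinations, 8 had 1 piglet set apart from the other 5 by more than Dixon's 95% limit, where chance gives about 1 in 20. Of these, 3 were IN replicate 3 at day 28, with 6.39 for TAP1 (other 5 piglets 10.03 to 11.31), 6.78 for TAPBP (9.31 to 9.86) and 7.08 for PSMB8 (9.98 to 11.47). Its overall profile correlated more closely with day 5 arrays than with its group. Those of OUT replicates 1 and 2 at day 28 were slightly closer to IN arrays of day 5 and IR arrays of day 56 than to their group, but not to OUT arrays of day 5. The others were TAPBP in IR replicate 2 at day 28, at 9.50 (10.19 to 10.60), PSMB8 in OUT replicate 1 at day 56, at 9.23 (10.60 to 11.27), CALR in IN replicate 3 at day 5, at 4.63 (3.58 to 3.84), CANX in IR replicate 3 at day 5, at 11.55 (11.73 to 11.82), and PDIA3 in OUT replicate 2 at day 28, at 11.08 (11.91 to 12.40).

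In tests of whether a treatment effect differed between 2 days, 3 genes had an unadjusted limma p under 0.01 at the brightest probeset, none with an adjusted p under 0.05. The IR against IN effect at day 56 minus that at day 28 was -2.09 for PSMB10 and -1.46 for TAPBP on the log2 scale, a test in which 2.12% of all probesets had a p under 0.01. For PSME1 the effect at day 56 minus that at day 5 was -0.59 for IR against OUT (unadjusted p = 0.00713, with 150 of all 23999 probesets under 0.01) and -0.63 for IR against IN (unadjusted p = 0.00456, with 1.69% under 0.01). Without IN replicate 3 of day 28 and OUT replicate 3 of day 5, TAPBP (unadjusted p = 0.0166) and PSME1 for IR against OUT (-0.49, unadjusted p = 0.0131) were no longer under 0.01.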

How the results depend on the processing

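Counts of called member probesets were recomputed under each alternative, and no gene with an unadjusted p under 0.05 changed direction. With a replicate block by label number, or in pairs of numbers, the day 56 counts were 1 for IN against OUT and 1 for IR against IN, in both the same CANX probeset. These blocks drop the 2 unnumbered arrays. Deviations from the group means over all probesets were correlated between same-numbered arrays of different treatments. The mean correlations were 0.02, 0.05 and 0.01 at days 5, 28 and 56, with single pairs between -0.48 and 0.68. These means gave no sign that the numbers pair the piglets, but they cannot settle it. With only the 2 groups compared, IR against IN at day 28 gave 1 (PSMB10), IN at day 56 against day 28 gave 1, and OUT at day 28 against day 5 gave 3. With the block in pairs added, IR against OUT at day 28, IR against IN at day 28 and IR against IN at day 56 each gave 1. In 1 fit of all 9 groups IR against IN at day 28 gave 2 (PSMB10 and TAPBP). By adjusted p alone IN at day 28 against day 5 gave 5, and the difference of IR against IN between days 56 and 28 gave 0. Without IN replicate 3 of day 28 and OUT replicate 3 of day 5, IN at day 56 against day 28 gave 1. Among genes that had not reached that p, several signs turned without these arrays, such as TAPBP in IN at day 28 against day 5 (0.35, and -0.12 with them) and TAP1 in IN against OUT at day 28 (0.51, and -0.18 with them). The causes were not tested.

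With each array left out in turn, counts ran from 0 to 1 for IN against OUT at day 56 (1 without OUT replicate 3), from 1 to 3 for IN at day 56 against day 28 (1 without IN replicate 3 of day 28) and from 0 to 1 for OUT at day 56 against day 28 (1 without OUT replicate 3 of day 56 or replicate 2 of day 28). They ran from 0 to 1 for IR against IN at day 28 (1 without IR replicate 2, IN replicate 1 or 2, or OUT replicate 2). For the differences between days they ran from 0 to 1 for IN against OUT, day 56 minus 28 (1 without OUT replicate 3 of day 56 or replicate 2 of day 28), from 0 to 1 for IR against IN, day 28 minus 5 (1, TAPBP, without IR replicate 2 or IN replicate 1 or 4 of day 28, or IR replicate 1 or IN replicate 5 of day 5), and from 2 to 5 for IR against IN, day 56 minus 28 (2 without IN replicate 3 and 5 without IN replicate 1 of day 28). The dim probeset filter, repeated quantile normalization, median centring and the intensity trend moved no count by over 1.5 times. CALR and the dimmest TAP1, CANX and PDIA3 probesets were near background, which limits what their values can show.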
